A study of Mus musculus with 12 samples.

Results

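Fat tissue borders and pads the kidney, and 10 genes that mark fat cells were followed here through RNA sequencing of mouse kidney cortex. They are Adipoq, Cfd, Lep, Retn, Plin1, Cidec, Adrb3 and Car3, which mark white fat cells or fat cells in general, and Ucp1 and Cidea, which mark brown fat cells. They were taken by gene symbol, and all 10 were among the 11614 genes of the deposited tables. The kidney cortices came from C57BL/6J mice in 4 groups, with 3 sequencing libraries per group and 12 in all. The study asked what happens to the kidney in a mouse model of NASH, a liver disease of fat and inflammation. NASH mice at 12 weeks received a Western diet (WD) with CCl4, a liver toxin, for 12 weeks, and their controls received a normal diet with corn oil for the same time. NASH mice at 24 weeks received WD with CCl4 for 24 weeks, and their controls a normal diet with corn oil for 24 weeks. The labels give 6, 6, 10 and 8 mice for these groups in this order, with males and females in equal number. Diet, toxin and liver disease differ together between NASH and control, so their effects cannot be told apart. The labels do not say whether a library is 1 mouse or a pool, so each p-value measures only the spread between these libraries.

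White fat cells store triglyceride in a single large lipid droplet and release hormones such as adiponectin and leptin. Brown fat cells hold many small droplets and many mitochondria, and burn fuel for heat through uncoupling protein 1. The fat around a mouse kidney can hold both kinds, while most cells of the cortex itself are tubule cells. In RNA from bulk tissue, fewer fat cells and less RNA per fat cell cannot be told apart.

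The 250 bases upstream of the start site were read for 3 members, because Adipoq and Lep stand for the white set and Ucp1 for the brown set that the results set apart. RefSeq promoters of build GRCm38.p6 covered 7 of the 10 members. The Adipoq bases span chr16:23146286-23146535, those of Lep chr6:29059971-29060220 and those of Ucp1 chr8:83290098-83290347, all on the plus strand and written 5′ to 3′. Capitals mark matches to 5 short motifs on either strand, none of which overlapped another kind. The motifs were TATAAA of the TATA box, CCAAT of the box of that name, AGGTCA as the half-site of nuclear receptors, TTNNGCAA as the core bound by C/EBP factors, and TGACG as a half-site of the cyclic AMP response element.
Adipoq: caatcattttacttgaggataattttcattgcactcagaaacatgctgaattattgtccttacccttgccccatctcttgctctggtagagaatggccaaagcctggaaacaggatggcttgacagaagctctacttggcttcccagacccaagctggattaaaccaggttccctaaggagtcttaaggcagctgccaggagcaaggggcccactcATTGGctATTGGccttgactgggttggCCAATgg
Lep: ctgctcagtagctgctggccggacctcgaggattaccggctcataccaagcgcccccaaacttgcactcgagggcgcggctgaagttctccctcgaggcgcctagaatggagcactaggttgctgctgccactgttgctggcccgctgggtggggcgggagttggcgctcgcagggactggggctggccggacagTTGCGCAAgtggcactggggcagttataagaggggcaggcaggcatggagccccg
Ucp1: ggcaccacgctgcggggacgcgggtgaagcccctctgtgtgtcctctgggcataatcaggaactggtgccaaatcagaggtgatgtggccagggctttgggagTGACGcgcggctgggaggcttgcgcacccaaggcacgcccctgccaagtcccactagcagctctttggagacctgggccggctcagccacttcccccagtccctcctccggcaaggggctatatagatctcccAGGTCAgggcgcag
Counted back from the start site, Adipoq held CCAAT at bases -34 to -30 and -27 to -23 on the minus strand, printed as ATTGG, and at -7 to -3 on the plus strand. Lep held the C/EBP core at -55 to -48, where it reads the same on both strands. Ucp1 held TGACG at -147 to -143 and AGGTCA at -14 to -9, both on the plus strand. Of the promoters not printed, that of Plin1 held the C/EBP core at -187 to -180 and -58 to -51 and 1 of 2 entries of Cidec held it at -198 to -191. Cfd and Retn held no match, and TATAAA was in none of the 8 entries. Of 32851 promoter windows of this length, 33.8% held CCAAT, 9.56% the C/EBP core, 17.8% TGACG, 14% AGGTCA and 12.4% TATAAA. A match describes the letters and is not evidence of a bound factor.

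All levels below are deposited log2 values of scaled read counts, and groups are given by replicates 1, 2 and 3. Estimated from the spacing of low values, depth ran from 7170000 to 14100000 reads per library, and 1 read was worth 1 to 1.96 scaled reads. A value worth about 1 read is called the lowest value here, and may stand for 0 reads, since how 0 was replaced before deposit is not stated. All 11 listed genes of proximal tubule, the main cell of the cortex, were measured, with medians of 13.96 to 14.79 per library. Replicate 1 of every group differed from replicates 2 and 3 in genes of sex: Xist, the RNA of the inactive X chromosome, was at 10.6 to 11.54 in replicate 1 and at 2.97 to 4.86 in replicates 2 and 3. Ddx3y, a gene of the Y chromosome, was at 2.48 to 4.25 in replicate 1 and at 8.95 to 9.62 in replicates 2 and 3. Replicate 1 was the highest library of its group for 7 of 10 markers in NASH and 9 in control mice at 12 weeks, and for 0 in NASH and 9 in control mice at 24 weeks. The labels give no sex for a library, and its part in the marker levels was not tested.

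Control replicate 1 at 24 weeks stood apart from the other 11 libraries. It held the highest value of 9 of the 10 markers, all but Lep, and exceeded the next library by 5.93-fold for Cidec to 62.2-fold for Ucp1. Of all 11614 genes, 15.9% were highest in that library, and 0.456% were highest there by more than 2-fold. Every deposited gene reaches 100 scaled reads, a log2 value of 6.64, in at least 1 library. Plin1, Adrb3, Ucp1 and Cidea reach it in control replicate 1 at 24 weeks alone, Cidec only in the 3 controls at 24 weeks, and Lep in control replicate 2 at 24 weeks alone. A gene that entered the tables through 1 high library or group had to differ there, so these 6 markers do not add independent counts for controls at 24 weeks. Retn reached that level in 2 libraries, control replicate 1 at 24 weeks and NASH replicate 1 at 12 weeks. Its high values there are not independent of the filter either. Adipoq reached it in 5 libraries, Cfd in 7 and Car3 in 12. The spread within groups was wide: the residual SD of the 10 markers was 1.0 for Cidec to 2.91 for Cfd on the log2 scale, against a median of 0.269 over all genes. Results that rest on control replicate 1 at 24 weeks are therefore given with and without it.

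Among the secreted proteins, Adipoq encodes adiponectin, a hormone made almost only by fat cells (chromosome 16, 23146536 to 23157968 on mm10, plus strand). It was at 7.93, 5.67 and 3.77 in NASH libraries at 12 weeks, and at 6.56, 2.34 and 2.40 in their controls. At 24 weeks it was at 2.17, 7.54 and 4.93 in NASH libraries, and at 10.50, 7.88 and 7.71 in controls. The groups overlapped at 12 weeks, and at 24 weeks all 3 NASH libraries lay below all 3 controls, the nearest pair being 7.54 and 7.71. The estimated reads behind these values ran from 4 in NASH replicate 1 at 24 weeks to 1067 in control replicate 1 at 24 weeks.

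Cfd encodes adipsin, the complement factor D that fat cells secrete (chromosome 10, 79890853 to 79892655, plus strand). It was at 9.91, 7.41 and 4.94 in NASH libraries and at 8.66, 3.34 and 1.67 in controls at 12 weeks. Its values at 24 weeks were 2.98, 8.15 and 4.84 in NASH libraries and 12.98, 8.01 and 8.58 in controls. NASH and control libraries overlapped at both times, and Cfd spanned 2543-fold over the 12 libraries, the widest range of the 10 markers. Per kilobase of transcript it was also the most abundant marker in control replicate 1 at 24 weeks, at 10552 scaled reads per kilobase.

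Lep encodes leptin, the hormone that reports fat stores to the brain (chromosome 6, 29060221 to 29073876, plus strand). Its values were 2.96, 3.97 and 3.09 in NASH libraries and 2.43, 1.02 and 1.08 in controls at 12 weeks. They were 0.24, 5.40 and 0.76 in NASH libraries and 4.35, 6.87 and 5.39 in controls at 24 weeks. Lep was the 1 marker for which all NASH libraries lay above all controls at 12 weeks, but the values rested on 5 to 8 reads in NASH and 2 to 5 reads in control libraries. At 24 weeks NASH replicates 1 and 3 were at the lowest value, and NASH replicate 2 overlapped the controls.

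Retn encodes resistin, a hormone of fat cells in mice (chromosome 8, 3655770 to 3659818, plus strand). It was at 6.83, 2.92 and 2.27 in NASH libraries and at 5.38, 2.02 and 1.37 in controls at 12 weeks. It was at 0.24, 5.63 and 0.79 in NASH libraries and at 9.58, 5.84 and 5.23 in controls at 24 weeks. Both times had overlapping groups, and the 2 NASH libraries at the lowest value were the same as for Lep.

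Plin1 and Cidec encode coat proteins of the fat cell's lipid droplet: perilipin 1 guards the droplet against lipases, and Cidec helps droplets fuse. Plin1 (chromosome 7, 79721164 to 79732776, minus strand) was at 6.26, 4.20 and 3.22 in NASH libraries and at 5.01, 3.25 and 3.52 in controls at 12 weeks. It was at 3.31, 4.83 and 4.08 in NASH libraries and at 9.22, 5.58 and 5.81 in controls at 24 weeks. The groups overlapped at 12 weeks and did not at 24 weeks, when every NASH library was below every control.

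Cidec (chromosome 6, 113424636 to 113435755, minus strand) was at 6.33, 5.61 and 4.57 in NASH libraries and at 5.86, 4.77 and 4.40 in controls at 12 weeks. At 24 weeks Cidec was at 5.42, 6.31 and 5.18 in NASH libraries and at 9.41, 6.84 and 6.70 in controls, again with no overlap. Its range over the 12 libraries, 32.1-fold, was the narrowest of the 10 markers.

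Adrb3 encodes the beta 3 adrenergic receptor, through which noradrenaline starts lipolysis in white and heat production in brown fat cells of mice (chromosome 8, 27225776 to 27229588, minus strand). It was at 4.55, 2.97 and 2.77 in NASH libraries and at 2.91, 1.60 and 0.15 in controls at 12 weeks. It was at 0.24, 4.12 and 0.76 in NASH libraries and at 7.54, 4.52 and 4.89 in controls at 24 weeks. The groups overlapped at 12 weeks, and at 24 weeks the 3 NASH libraries lay below the 3 controls. Outside control replicate 1 at 24 weeks it never exceeded 24 estimated reads.

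Car3 encodes carbonic anhydrase 3, an enzyme abundant in fat cells and also in skeletal muscle and liver (chromosome 3, 14863538 to 14872373, plus strand). It was at 10.32, 9.25 and 8.73 in NASH libraries and at 10.35, 10.13 and 10.54 in controls at 12 weeks. At 24 weeks Car3 was at 7.62, 9.41 and 6.78 in NASH libraries and at 13.17, 9.99 and 9.65 in controls, with no overlap. Unlike the other white markers, Car3 stayed above 10 in control replicates 2 and 3 at 12 weeks, where Adipoq had 5 estimated reads each and Car3 1103 and 1408. Skeletal muscle genes, measured for 5 of 15 listed, had medians of 6.39 to 7.23 in all libraries, and their part in the Car3 level was not tested.

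Ucp1 encodes the uncoupling protein of brown fat mitochondria (chromosome 8, 83290348 to 83298456, plus strand). It was at 5.01, 5.92 and 5.81 in NASH libraries and at 5.06, 2.34 and 3.89 in controls at 12 weeks. At 24 weeks it was at 4.26, 3.31 and 4.76 in NASH libraries and at 11.88, 4.25 and 5.66 in controls. NASH and control libraries overlapped at both times. Control replicate 1 at 24 weeks had 2772 estimated reads of Ucp1, and the other 11 libraries had 5 to 41.

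Cidea, on chromosome 18, encodes a lipid droplet protein of the Cidec family that in mice is typical of brown fat cells. Its values were 3.48, 4.67 and 3.35 in NASH libraries and 4.43, 1.60 and 1.08 in controls at 12 weeks. They were 3.49, 0.38 and 5.00 in NASH libraries and 9.70, 2.58 and 3.30 in controls at 24 weeks, and the groups overlapped at both times. NASH replicate 2 at 24 weeks held the lowest value of Cidea in the series, although all 8 of the white and general markers were higher there than in the other NASH libraries at 24 weeks.

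**Figure D1:**
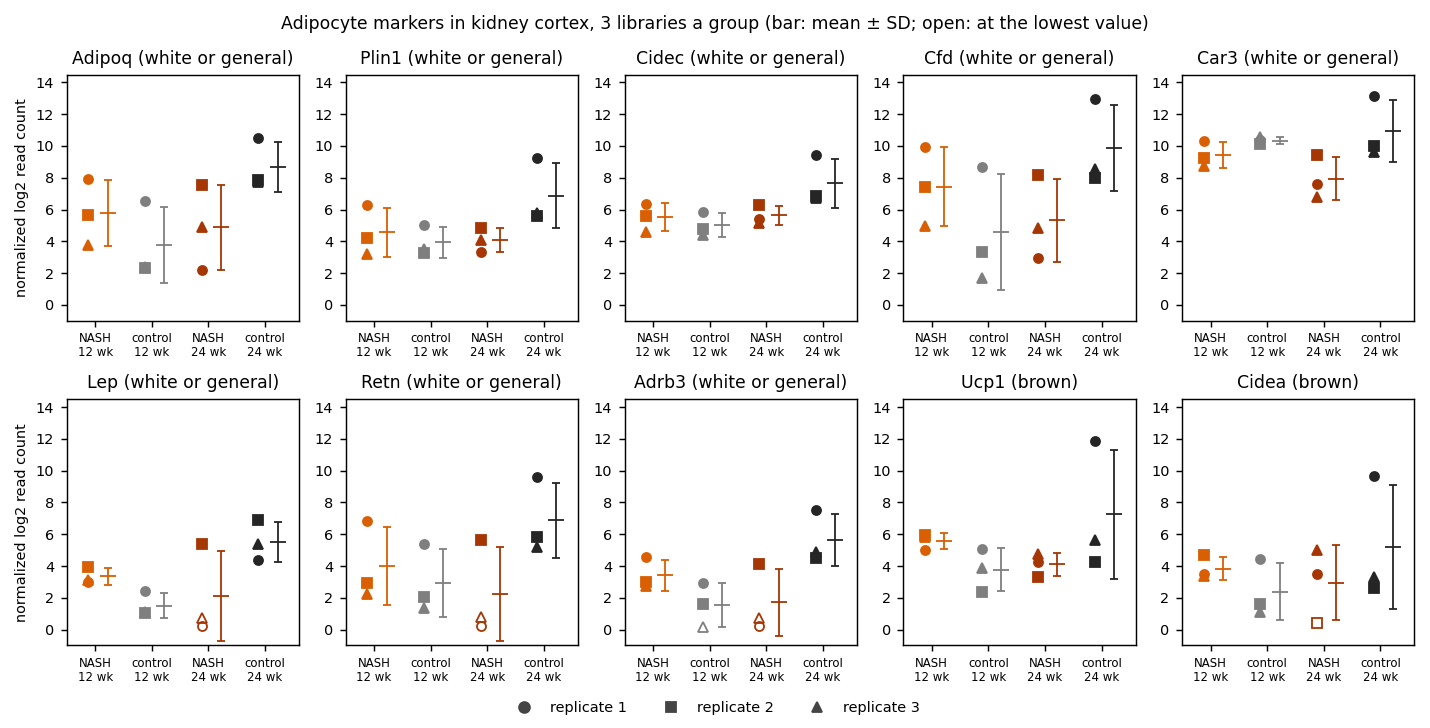
Normalized log2 read count (y axis) of the 10 markers in the 4 groups (x axis), 1 point per library with replicate numbers as shapes, open where at the lowest value, and a bar for the mean ± SD of 3 libraries. Control replicate 1 at 24 weeks is the highest point in every panel but that of Lep, and reaches 11.88 for Ucp1 against 5.92 in the next library.

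The first comparison asks whether NASH changed the markers at 12 weeks. No marker was called by limma at an adjusted p under 0.05, where 0.0517% of all genes were called without a replicate block and 12.9% with it. The log2 change, NASH minus control, was positive for 9 of 10 markers, from 0.49 for Cidec to 2.86 for Cfd, and -0.91 for Car3. The median was 1.64, beside -0.08 over all genes. It was 0.62 on log2(value + 10), 2.39 without control replicate 1 and 0.99 without control replicate 3 at 12 weeks. Adipoq averaged 5.79 ± 2.08 in NASH libraries and 3.77 ± 2.42 in controls, and Ucp1 5.58 ± 0.50 in NASH libraries and 3.76 ± 1.36 in controls (SD, n = 3 each). Cfd averaged 7.42 ± 2.49 in NASH libraries and 4.56 ± 3.65 in controls. Cfd had a standard error (SE) of 2.03 and an adjusted p of 0.524 by limma, the smallest of the 10, and that of Adipoq (2.02, SE 1.57) was 0.567. None had an unadjusted p under 0.05 in that fit, and none with the replicate block. With replicates 2 and 3 alone, limma put Cfd at 3.67 (adjusted p = 0.0768), Ucp1 at 2.75 (0.0771) and Adipoq at 2.35 (0.118), and 0 of the 10 were called where 3.31% of genes were. These were the 3 markers with an unadjusted p under 0.05 in that subset, where 2803 of all 11614 genes had one. All 3 NASH libraries lay above all 3 controls for Lep, 1 of 10 markers, against 8.14% of all genes, and no marker lay below, against 14.4%.

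The second comparison asks the same at 24 weeks, and there all 10 changes were negative. Adipoq averaged 4.88 ± 2.69 in NASH libraries and 8.70 ± 1.56 in controls (SD, n = 3 each). Cidec averaged 5.64 ± 0.60 in NASH libraries and 7.65 ± 1.52 in controls, and Ucp1 4.11 ± 0.73 in NASH libraries and 7.26 ± 4.06 in controls. The change was -4.66 for Retn (SE 1.86), -4.53 for Cfd (SE 2.03), -3.95 for Adrb3 (SE 1.60) and -3.82 for Adipoq (SE 1.57). Lep was at -3.41, Ucp1 at -3.15, Car3 at -3.0, Plin1 at -2.80, Cidea at -2.24 and Cidec at -2.01. No marker was called, at adjusted p of 0.999 in limma, where 0% of all genes were called and 347 had an unadjusted p under 0.05, and none with the block, where 1 gene, 0.00861%, was. Unadjusted p was under 0.05 for 7 markers without the block and for 9 with it, and for 1124 of all genes with it. The median of the 10 was -3.28, beside 0.01 over all genes, and -1.65 with replicates 2 and 3 alone. Plin1, Cidec, Lep, Adrb3, Ucp1 and Cidea entered the tables only through controls at 24 weeks, which favoured lower NASH values in advance. Among the 24-week libraries, Retn reached the filter level only in control replicate 1, which favoured the same. The signs, the counts of unadjusted p and the median are therefore not independent of the filter. All NASH libraries lay below all controls for Adipoq, Plin1, Cidec, Car3 and Adrb3, 5 of 10, against 2.65% of all genes. Of these 5, Plin1, Cidec and Adrb3 entered the tables only through controls at 24 weeks. No marker lay above, against 4.56% of all genes.

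Part of the size of these changes rested on control replicate 1 at 24 weeks. Without it the median was -2.40, Adipoq was at -2.92, Cfd at -2.97, Retn at -3.32 and Lep at -4.00. Ucp1 was at -0.85 and Cidea at 0.02, against -3.15 and -2.24 with that library, so the brown pair moved the most. Without it, 2 markers, Car3 at -1.88 and Lep, had an unadjusted p under 0.05 by limma, with an adjusted p of 0.843 each, and 0 were called. Of all 11614 genes, 635 had such an unadjusted p. With replicates 2 and 3 alone, 0 markers were called, where 0.103% of genes were, and the changes ran from -3.05 for Lep to -0.25 for Cidea. Only Car3 had an unadjusted p under 0.05 there, beside 1061 of all genes.

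**Figure D2:**
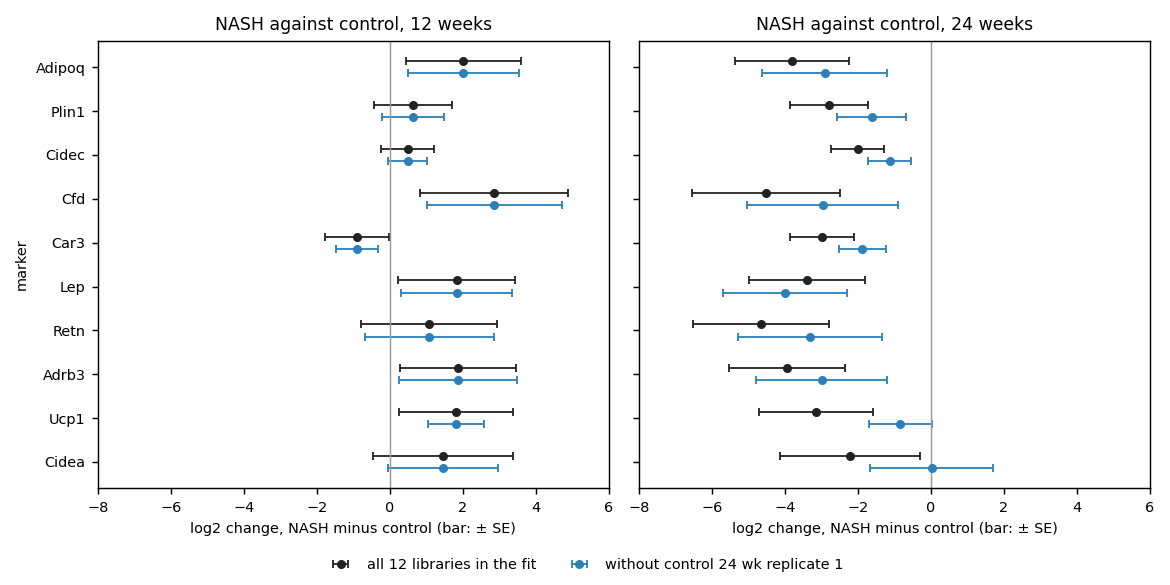
Log2 change, NASH minus control (x axis, bar ± SE from limma), of the 10 markers (y axis) at 12 weeks on the left and 24 weeks on the right, with all 12 libraries (black) and without control replicate 1 at 24 weeks (blue). At 24 weeks Ucp1 is at -3.15 with that library and -0.85 without it, and Cidea at -2.24 and 0.02.

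The NASH change at 24 weeks minus that at 12 weeks had a median of -5.11 over the markers, beside 0.09 over all genes, and ran from -7.40 for Cfd (SE 2.87) to -2.09 for Car3 (SE 1.24). No marker was called by limma, with 0% of all genes called without the block and 0.00861% with it. An unadjusted p under 0.05 was found for 7 markers without the block, for 8 with it and for 2, Lep and Ucp1, without control replicate 1 at 24 weeks. Of all 11614 genes, 425, 1489 and 1106 had one in these fits. Without that library the median was -3.53. With replicates 2 and 3 alone the median was -3.45, and 0 markers were called, where 0.629% of genes were. In that subset 4 markers and 1786 of all genes had an unadjusted p under 0.05. Plin1, Cidec, Lep, Adrb3, Ucp1 and Cidea entered the tables only through controls at 24 weeks, which favoured a negative difference in advance. Retn entered only through control replicate 1 at 24 weeks and NASH replicate 1 at 12 weeks, which favoured the same sign.

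By time in NASH mice, 24 against 12 weeks, the changes ran from -2.10 for Cfd to 0.13 for Cidec, with a median of -1.34, beside 0.02 over all genes. That median was -0.05 with replicates 2 and 3 alone, -0.53 on log2(value + 10), -0.86 without NASH replicate 1 and -2.24 without NASH replicate 2 at 24 weeks. None had an unadjusted p under 0.05 by limma, with or without the block, and none was called, where 0% of genes were without the block and 0.0258% with it. Ucp1 was the 1 marker with all 24-week libraries below all 12-week ones, against 4.37% of all genes. Its change was -1.47 (SE 1.56). No marker lay above, against 4.06%. With replicates 2 and 3 alone no marker was called either, where 4.66% of genes were. An unadjusted p under 0.05 was found for 1 marker and for 2195 of all genes in that subset. There Adipoq was at 1.52, Plin1 at 0.75, Retn at 0.62 and Cfd at 0.32, all higher at 24 weeks.

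By time in control mice, 24 against 12 weeks, all 10 changes were positive, with a median of 3.73, beside -0.08 over all genes, of which 37.2% were positive. This comparison shares its control libraries with both comparisons of NASH with control. Cfd was at 5.30, Adipoq at 4.93 (SE 1.57), Adrb3 at 4.09, Lep at 4.03, Retn at 3.96, Ucp1 at 3.50, Plin1 at 2.95, Cidea at 2.82, Cidec at 2.64 (SE 0.73) and Car3 at 0.60. None was called by limma, where 0% of genes were without the block and 0.172% with it. An unadjusted p under 0.05 was found for 7 markers without the block and 8 with it, and for 910 and 2267 of all 11614 genes. Cidec had the smallest adjusted p, 0.454 without the block and 0.0604 with it. All 24-week controls lay above all 12-week controls for Adipoq, Plin1, Cidec, Lep and Adrb3, 5 of 10, against 4.72% of genes. Of these 5, Plin1, Cidec, Lep and Adrb3 entered the tables only through controls at 24 weeks and so had to be high there, which leaves Adipoq. Ucp1 and Cidea entered in the same way. Among controls, Retn reached the filter level only in replicate 1 at 24 weeks. The signs, the median and the counts of unadjusted p are therefore not independent of the filter either. No marker lay below the 12-week controls, against 7.38% of genes. Without control replicate 1 at 24 weeks the median was 2.19, with Adipoq at 4.03, Lep at 4.62, Ucp1 at 1.19, Cidea at 0.57 and Car3 at -0.52. In that fit 3 markers and 2048 of all genes had an unadjusted p under 0.05, and no marker was called.

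With replicates 2 and 3 alone, which leave out control replicate 1 at 24 weeks and every other Xist-high library, 3 of 10 markers were called in that comparison, where 6.5% of all genes were, and 2.33% in the upward direction. Adipoq rose by 5.42 (SE 0.81, adjusted p = 0.00537 by limma), Cfd by 5.79 (SE 1.03, adjusted p = 0.011) and Cidec by 2.18 (SE 0.49, adjusted p = 0.0289) in 24-week over 12-week controls. Cidec entered the tables only through controls at 24 weeks, so its call is not independent of the filter. Adipoq was at 7.88 and 7.71 in those 24-week libraries and at 2.34 and 2.40 in those at 12 weeks. These calls rest on 2 libraries per group. The 2 at 12 weeks held only 5 estimated reads each of Adipoq, and 10 and 3 of Cfd. In the same limma fit Plin1 (2.31, adjusted p = 0.0632) and Lep (5.08, adjusted p = 0.0593) did not pass, and Ucp1 (1.84) and Cidea (1.60) had adjusted p of 0.182 and 0.592.

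Whether the markers go up and down together was measured over the 12 libraries, as the Pearson correlation r of log2 values with Adipoq, with permutation p-values adjusted over 10 relations. Cfd (r = 0.97, Spearman rho = 0.91), Retn (0.93, 0.93), Adrb3 (0.93, 0.92), Plin1 (0.91, 0.94) and Cidec (0.89, 0.89) followed Adipoq closely. Their adjusted permutation p was 5e-05 for Cfd and Plin1, from 1e-05, the smallest that 100000 permutations can give, and 6e-05 for the other 3. Lep followed less closely, at r = 0.76 and rho = 0.73 (adjusted permutation p = 0.0077). Among all 11613 other genes ranked by r with Adipoq, Cfd was at rank 1, Retn at 2, Adrb3 at 4, Plin1 at 5, Cidec at 7 and Lep at 36. Plin1 and Adrb3 entered the tables through control replicate 1 at 24 weeks alone, where Adipoq was highest too. Retn entered only through that library and NASH replicate 1 at 12 weeks, the 2 libraries with the most Adipoq. Cidec and Lep entered only through controls at 24 weeks. The r, p and rank of these markers include this. Without control replicate 1 at 24 weeks, r was 0.93 for Plin1, 0.90 for Retn, 0.90 for Adrb3 and 0.89 for Cidec, at ranks 2, 3, 5 and 6.

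Car3 and the brown pair parted from the markers that followed Adipoq. Car3 correlated with Adipoq at r = 0.55 and rho = 0.43 (adjusted permutation p = 0.0682 for r), Ucp1 at 0.62 and 0.41 (0.0214 for r and 0.205 for rho) and Cidea at 0.50 and 0.20 (0.0871 and 0.529). Their ranks were 302, 165 and 425. Ucp1 and Cidea followed each other at r = 0.91 and rho = 0.74 (adjusted permutation p = 0.00118 and 0.0128), and Cidea ranked 2 among all genes by r with Ucp1. Both entered the tables through control replicate 1 at 24 weeks alone and so had to be high there together, which this r, its p and the rank include. Without that library r was 0.73 and the rank 5.

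**Figure D3:**
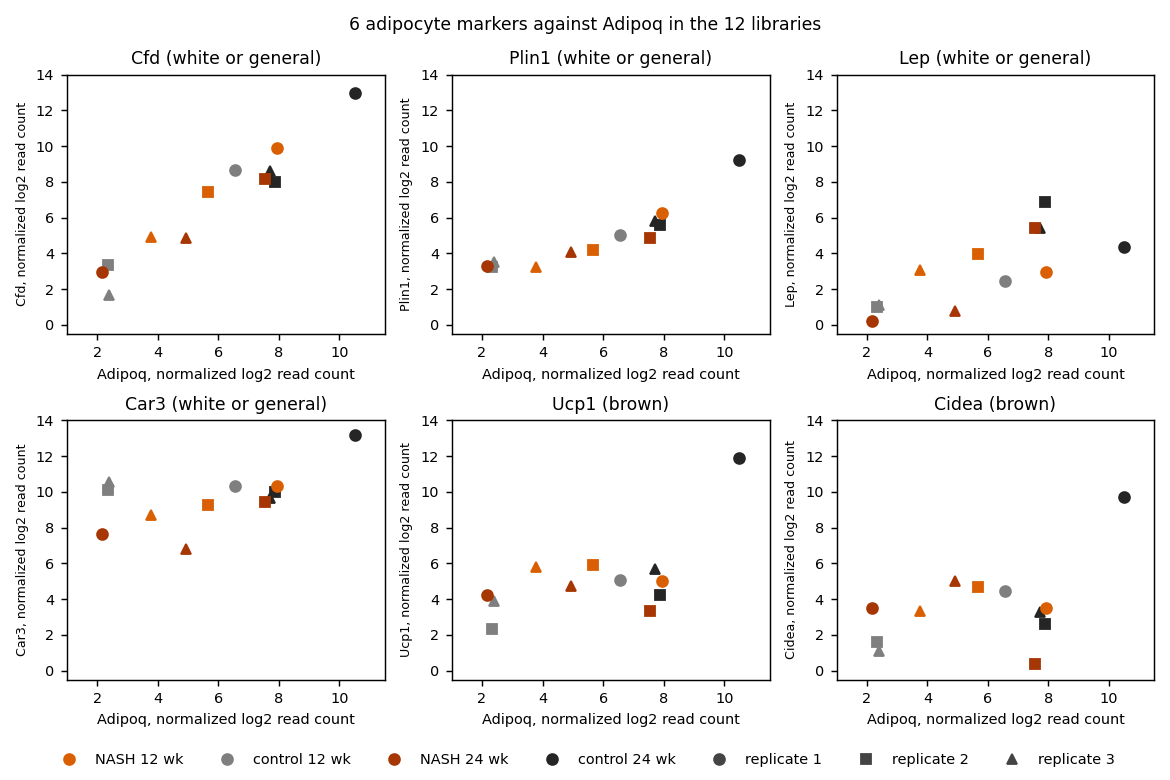
Log2 read count of 6 markers (y axes) against that of Adipoq (x axes), 1 point per library, colours for groups and shapes for replicate numbers. Cfd and Plin1 follow Adipoq from 2.17 to 10.50, while Ucp1 and Cidea, apart from the black circle of control replicate 1 at 24 weeks, lie flat or scattered.

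Those relations were computed again in subsets, since 1 library was so high. Leaving out control replicate 1 and NASH replicate 1 at 24 weeks, the 2 libraries farthest from the median of Adipoq, r with Adipoq was 0.95 for Cfd, 0.93 for Plin1, 0.96 for Cidec, 0.88 for Retn, 0.87 for Adrb3 and 0.76 for Lep. In the same 10 libraries it was 0.33 for Ucp1, 0.19 for Cidea and 0.08 for Car3, with adjusted permutation p of 0.429, 0.655 and 0.848. Without control replicate 1 at 24 weeks alone, r of Ucp1 with Adipoq was 0.34 (adjusted permutation p = 0.385), and without NASH replicate 1 at 24 weeks alone it was 0.63 (0.035), so the relation over 12 libraries rests on that control library. Without control replicate 2 at 12 weeks it was 0.55 (0.0807). The relation of Cidea with Ucp1 was 0.73 without control replicate 1 at 24 weeks (adjusted permutation p = 0.0158), and likewise 0.73 without it and control replicate 2 at 12 weeks (0.0229).

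Within replicates 2 and 3, 8 libraries, r with Adipoq was 0.86 to 0.96 for Plin1, Cidec, Cfd, Lep, Retn and Adrb3, with adjusted exact permutation p of 0.00446 to 0.0199. It was 0.29 for Ucp1, 0.10 for Cidea and -0.07 for Car3, with adjusted exact p of 0.594, 0.894 and 0.898, and Cidea with Ucp1 was at 0.74 (adjusted exact p = 0.0557). With replicate number as a block, as deviations from the mean of each number over all 12 libraries, r of Ucp1 with Adipoq was 0.64 (adjusted permutation p = 0.114), which loses its call. Taken as deviations from the 4 group means, r with Adipoq was 0.80 to 0.96 for Plin1, Cidec, Cfd, Retn and Adrb3, 0.49 for Lep, 0.64 for Car3, 0.35 for Ucp1 and 0.29 for Cidea. Replicate 1 alone has 4 libraries, too few for a correlation.

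Pair by pair, r was 0.38 to 0.97 among the 28 pairs of white and general markers, with a median of 0.88. It was 0.04 to 0.79 over the 16 pairs of 1 white and 1 brown marker, with a median of 0.60. Without control replicate 1 at 24 weeks the white median was 0.82, and the white with brown median was 0.14, over a range of -0.46 to 0.41. Among the 15 pairs without Car3 and Lep, which were left out after their values were seen, the lowest r was 0.88 with all libraries and 0.81 without that one. These pairs share libraries and depth, so they are given as a description without a test.

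**Figure D4:**
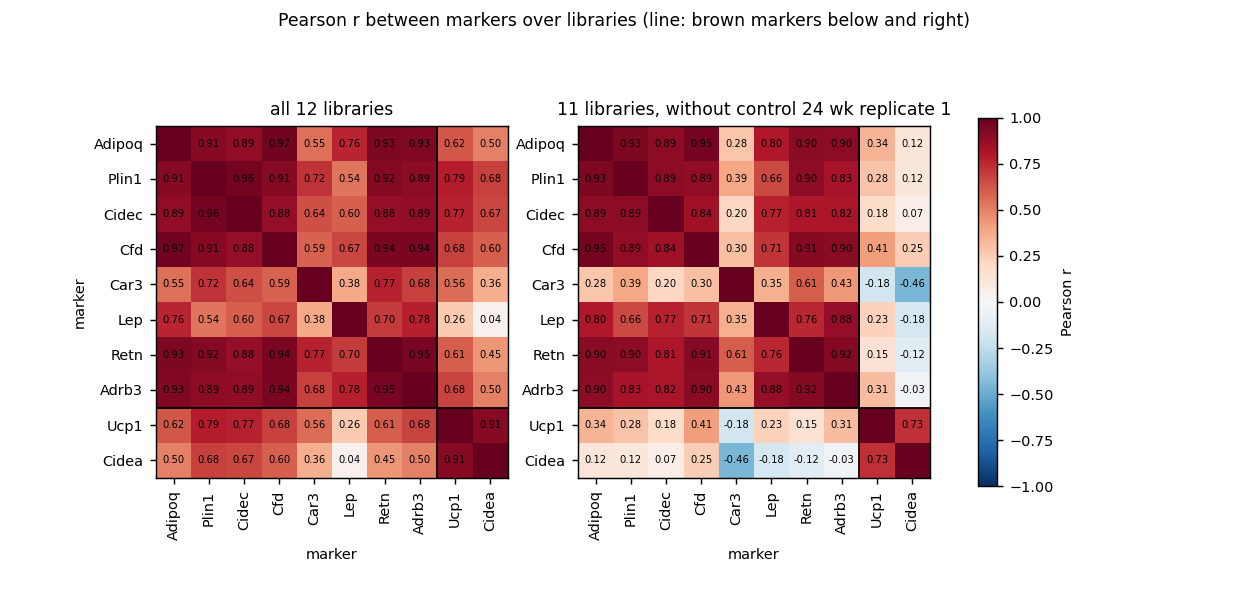
Pearson r between the 10 markers (both axes) over all 12 libraries on the left and over 11 libraries on the right, where control replicate 1 at 24 weeks is left out, with red for positive and blue for negative r. The block of white markers keeps a median of 0.82 on the right, and the cells of white with brown markers have a median of 0.14 there, against 0.60 on the left.

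The gap between both kinds was taken per library as the mean log2 value of Ucp1 and Cidea minus that of the 8 other markers. It was -2.64, 0.05 and 0.41 in NASH libraries and -1.15, -1.59 and -0.66 in controls at 12 weeks. It was 1.10, -4.58 and 1.37 in NASH libraries and 1.19, -3.53 and -2.26 in controls at 24 weeks. The brown mean exceeded the white mean in 5 of 12 libraries, and the SD over all 12 was 1.95. These means are not scaled for transcript length or for the usual level of each gene. The sign of the gap therefore does not say which kind of fat cell prevailed. In control replicate 3 at 12 weeks the gap was -0.66, yet Ucp1 per kilobase was 2.10 times Adipoq. The 4 groups overlapped in this gap, and it separated libraries of 1 group: NASH replicates 1 and 3 at 24 weeks were above 1, and NASH replicate 2 of that group was at -4.58.

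The largest contrasts were within the NASH group at 24 weeks. NASH replicate 1 had the lowest white mean of all 12 libraries, with 4 estimated reads of Adipoq and Lep, Retn and Adrb3 at the lowest value, yet 17 reads of Ucp1 and 10 of Cidea. NASH replicate 2 had 150 reads of Adipoq and ranked 5 by the white mean, yet had 8 reads of Ucp1, Cidea at the lowest value, and the lowest brown mean. Per kilobase of transcript, Ucp1 was 3.18 times Adipoq in NASH replicate 1 and 0.04 times Adipoq in NASH replicate 2. In NASH replicate 3, whose gap of 1.37 was the highest of all libraries, Ucp1 was only 0.67 times Adipoq. Lep, Retn and Adrb3 were at the lowest value there too. Control replicate 1 at 24 weeks was first by both means, and its ratio of Ucp1 to Adipoq was 1.95.

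Together the 8 white and general markers made up 0.0201%, 0.00661% and 0.00372% of the scaled reads in NASH libraries and 0.0143%, 0.00847% and 0.0111% in controls at 12 weeks. At 24 weeks they made up 0.00192%, 0.00975% and 0.00162% in NASH libraries and 0.153%, 0.0133% and 0.012% in controls. Much of this was Car3. Without Car3 the shares at 12 weeks were 0.0109%, 0.00228% and 0.000696% in NASH libraries and 0.00473%, 0.00044% and 0.000339% in controls. NASH replicates 2 and 3 then lay above control replicates 2 and 3, not below. At 24 weeks they were 0.000496%, 0.00491% and 0.00084% in NASH libraries and 0.086%, 0.00608% and 0.00622% in controls without Car3. Ucp1 and Cidea made up 0.0336% in control replicate 1 at 24 weeks and at most 0.000613% in the other 11 libraries. The order of levels per kilobase in that library was Cfd, Car3 (6020 scaled reads per kilobase), Ucp1 (2293), Retn (1317), Adipoq (1178), Cidea (713), Cidec (399), Plin1 (321), Adrb3 (66.7) and Lep (6.26).

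**Figure D5:**
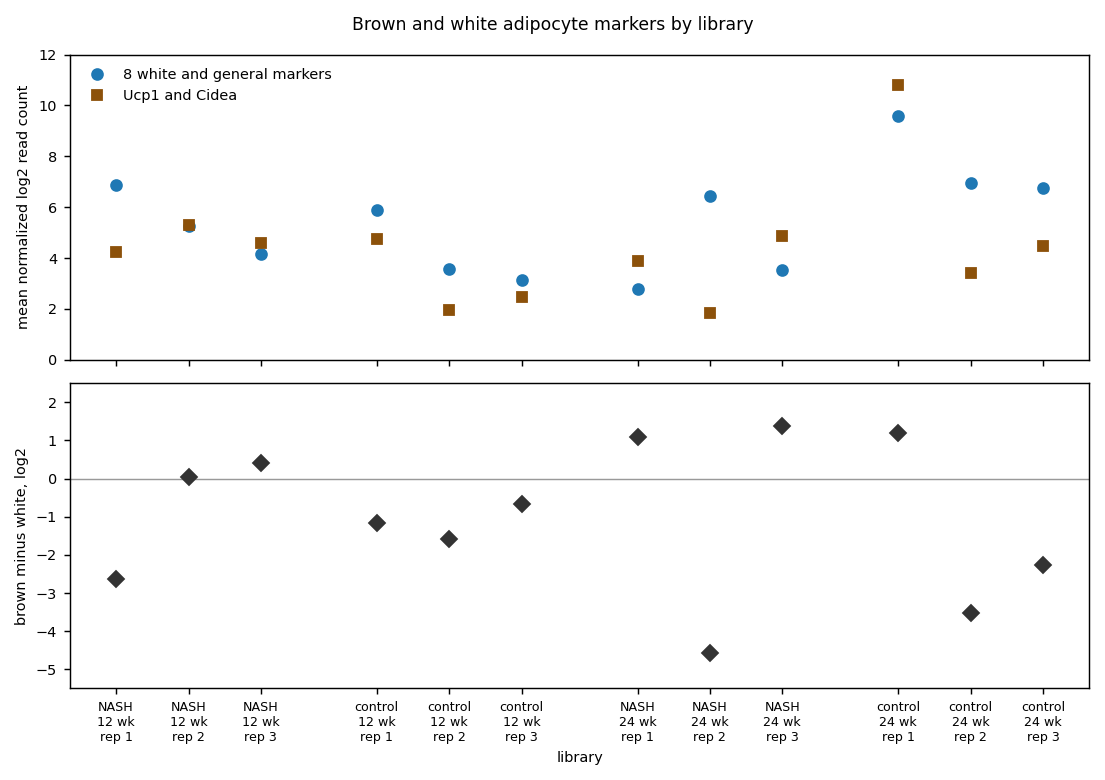
Upper panel, mean log2 read count (y axis) of the 8 white and general markers (blue circles) and of Ucp1 and Cidea (brown squares) in each library (x axis). Lower panel, brown minus white, which is highest at 1.37 in NASH replicate 3 and lowest at -4.58 in NASH replicate 2, both at 24 weeks.

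The other genes whose pattern was most like that of Adipoq over the 12 libraries were Abcd2 (r = 0.93), a fatty acid transporter of peroxisomes, Hp (0.89), haptoglobin, Plin4 (0.88), a lipid droplet protein, and Mrap (0.87), a partner of melanocortin receptors. They were followed by Ubr2 (0.86), Slc36a2 (0.85), Fabp4 (0.84), the fatty acid binding protein of fat cells, and Igfbp6 (0.84). Without control replicate 1 at 24 weeks these 8 had r of 0.81 to 0.90 with Adipoq. Slc36a2, which is on the list of further brown fat cell genes below, was then at 0.85 and rank 10. This brown-list gene thus followed the white marker Adipoq. Among those most like Ucp1 were Cib2 (0.94), Prkar2b (0.89), a regulatory subunit of protein kinase A, Hk2 (0.85), hexokinase 2, Fasn (0.85), fatty acid synthase, Ifi27l2a (0.85), Ier3 (0.84) and Thrsp (0.84). Without that library, Cib2 was at 0.78 and the other 6 of these genes were at -0.31 to 0.45. Abcd2, Hp, Mrap and Slc36a2 reached the filter level in control replicate 1 at 24 weeks alone, where Adipoq was highest too. Cib2, Prkar2b and Hk2 also reached it in that library alone, where Ucp1 was highest. Their r over all 12 libraries, and their place among the nearest genes there, include this. The r values of this paragraph only rank genes, over 12 or 11 libraries, and carry no test.

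Of 34 further genes of white or general fat cells 26 were measured, and of 24 further genes of brown fat cells 14 were. None of either list was called by limma in any of the 5 comparisons without the block, where the white list had 5 genes at an unadjusted p under 0.05 at 12 weeks and 3 at 24 weeks, and the brown list 0 and 1. Of all 11614 genes, 1684 and 347 had such a p. With the block, 3 white-list genes rose and 2 fell at 12 weeks in NASH, 5 of 26 where 12.9% of all genes were called, 350 of them higher and 1144 lower. Of these 5, G0s2 and Acsl1 are named after their values were seen. Pck1, the gluconeogenic enzyme that proximal tubules also make, rose by 1.88 (adjusted p = 0.0316 by limma), G0s2, an inhibitor of fat lipase, by 1.10 (0.0178) and Dgat2, an enzyme of triglyceride synthesis, by 0.46 (0.0448), while Gpam was at -0.94 (0.0251) and Acsl1 at -0.91 (0.0283). At 24 weeks none of either list was called in NASH with the block, and 3 white-list genes, G0s2, Plin4 and Pnpla2, were called higher by time in control mice, where 0.172% of all genes were called. The median change of the white list was 0.41 at 12 weeks and -0.49 at 24 weeks, and that of the brown list 0.07 and -0.33, beside -0.08 and 0.01 over all genes. Pck1 was at 13.83 to 17.45 over the 12 libraries, far above Adipoq.

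Control replicate 1 at 24 weeks was also the highest library for 15 of the 26 white-list genes, 7 of them by more than 2-fold, and for 7 of the 14 brown-list genes, 5 of them by more than 2-fold. Over all genes the shares were 15.9% and 0.456%. Of the brown-list genes, 3 are named here after their values were seen. Dio2, the enzyme that activates thyroid hormone in brown fat, was at 8.82 there and at 0.07 to 4.43 in the other libraries. Kcnk3, a potassium channel, was at 8.31 there and at 1.97 to 4.66 elsewhere, and Cox8b, a mitochondrial subunit of brown fat and muscle, at 9.04 there and 1.08 to 6.05 elsewhere. Dio2, Kcnk3 and Cox8b reached the filter level in that library alone and so had to be highest there. Slc36a2 of the brown list and Mrap of the white list entered the tables in the same way. The counts of both lists are therefore not independent of the filter. Of 17 genes of fatty acid and triglyceride synthesis 10 were highest there, 4 by more than 2-fold: Thrsp, Fasn, Acaca and Acacb.

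Lists of other cells give the setting of that library. It was the highest for 6 of 8 endothelial genes and 4 of 11 genes of fibroblasts and stroma, by more than 2-fold for 0 and 1 of them. It was highest for 0 of 11 proximal tubule genes, 2 of 11 of other nephron segments, 1 of 5 of skeletal muscle, 1 of 11 of hepatocytes (Hp), 1 of 10 of macrophages, 0 of 8 erythroid and 0 of 3 mesothelial ones. Their summed level in that library was 0.0774% of scaled reads for the endothelial and 0.0849% for the fibroblast list, against 0.0208% to 0.0663% and 0.0217% to 0.0623% in the other 11. The endothelial share was high in replicate 1 of the other groups too, at 0.0538% to 0.0663%, against 0.0208% to 0.0478% in replicates 2 and 3. Of 9 adrenal cortex genes, none was among the deposited genes, and of 10 lymphocyte genes 1 was. The part of any of these cells in the marker levels was not tested.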

How the data were processed

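RNA of kidney cortex was sequenced in 12 libraries, 3 in each of 4 groups. The authors deposited 1 table per library of log2 normalized read counts per gene, per the file headers, and BWA, limma and mouse build mm10 are named in the submitters' processing notes, without versions or roles. The files show that each library was multiplied by 1 factor and that every deposited gene reaches 100 scaled reads in at least 1 library. How that factor was set is not given in the sources used here. Estimated depth was 7170000 to 14100000 reads per library; 85.4% to 91.5% of values under 60 reads were whole reads within 0.01, and 98.2% to 100% were whole or the geometric mean of 2 transcripts.

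The deposited values entered limma 3.58.1 (R 4.3.3) with a variance trend, all 4 groups in 1 fit and no block, and p-values were adjusted by Benjamini-Hochberg over all 11614 genes, after the fit was tested on simulated data. Correlations used permutation tests in scipy 1.17.1 with numpy 2.4.6, pandas 2.3.3 and Python 3.11.15, and figures matplotlib 3.10.9. The replicate numbers, from the titles, were checked as a possible pairing of libraries across groups. All 18 correlations of same-numbered libraries, as deviations from group means, lay between 0.187 and 0.742, above 0.1. Replicates 2 and 3 correlated likewise across groups, at 0.187 to 0.637, and replicate 1 with either at -0.702 to -0.27, so the numbers set replicate 1 apart from the others rather than each number from the next. The alternatives were the replicate block, replicates 2 and 3 alone, leaving out each library, other scalings, a pseudocount of 10, a low-level filter, no variance trend, and the compared groups alone.

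The text names the 10 markers, the 8 genes closest to Adipoq and to Ucp1 by Pearson r, of which 1 is not reported here, the 4 listed genes of each list with the smallest p at 12 weeks where their values bear on a count, and genes named as chosen after their values were seen. Members, gene lists and comparisons were chosen with earlier results of these data known. Promoters came from RefSeq (GRCm38.p6), and those of 7 markers were used.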

Additional observations from a re-analysis of the deposited data

How the results depend on the processing

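With the replicate block, the number of genes called was 1494 at 12 weeks, 1 at 24 weeks, 1 for the difference of both, 3 by time in NASH and 20 by time in control mice, and the block changed the call of no marker. With replicates 2 and 3 alone these numbers were 385, 12, 73, 541 and 755, and 3 markers were called by time in control mice. With only the groups compared 1 gene was called at 12 weeks and 1 by time in control mice, and the difference has no such fit. Leaving out 1 library gave 0 to 11 genes at 12 weeks, 0 to 4 by time in NASH and 0 to 3 by time in control mice. The marker median of the difference was -2.73 on log2(value + 10) and -3.45 with replicates 2 and 3. Of 965 other values of the 50 marker changes, 947 kept direction and call, 15 reversed and 3 newly passed. Those reversed with replicates 2 and 3 were, by time in NASH, Adipoq at 1.52, Cfd at 0.32, Plin1 at 0.75 and Retn at 0.62, by time in control mice Car3 at -0.52, and r of Car3 with Adipoq at -0.073. Leaving out 1 library gave -0.22 to 1.31 for Plin1 and -0.33 to 2.31 for Retn at 12 weeks, and -3.54 to 0.015 for Cidea at 24 weeks. It gave -2.24 to 0.44 for Adipoq, -1.16 to 0.37 for Plin1, -0.33 to 0.54 for Cidec and -1.90 to 0.41 for Cidea by time in NASH, and -0.52 to 1.24 for Car3 by time in control mice. Except for the fits with fewer libraries, the cause was not tested. Markers near 1 read limit the low end: Lep, Retn, Adrb3 and Cidea each rest there on single reads.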

Other observations

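Cox8b, a mitochondrial subunit of brown fat and muscle that was picked here after its values were seen, was, like Ucp1 and Cidea, lowest in replicate 2 of the NASH libraries at 24 weeks. The median of all 14 measured genes of the brown list did not share this, at 8.75, 8.18 and 7.95 in those libraries. Cox8b was at 6.05, 1.31 and 5.00 in those libraries and at 9.04, 3.17 and 4.47 in controls at 24 weeks. At 12 weeks Cox8b was at 6.04, 4.97 and 3.77 in NASH libraries and at 2.91, 2.83 and 1.08 in controls, so that all NASH libraries lay above all controls, as they did for 8.14% of all genes. Dio2, another brown fat gene, did not show this: it was at 0.24, 0.38 and 0.83 in NASH libraries at 24 weeks, near or at the lowest value. Prdm16 and Ppargc1a, regulators of the brown fat program, were at 6.86 to 8.68 and 9.53 to 10.95 over all 12 libraries, and neither was highest in control replicate 1 at 24 weeks.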
